A study of Mus musculus with 6 samples.

Results

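Immediate early and heat shock genes were examined in sorted alveolar type 2 cells (AT2s) with and without constitutive BMP receptor activity. The members were the rows of the count table whose gene symbol was on a list of 42 symbols, and all 42 were found among 24421 genes. They comprise 34 immediate early genes and 8 heat shock genes. The immediate early genes were divided by role into 10 genes of the AP-1 transcription factors and their relatives, 7 EGR and KLF transcription factors, and 17 feedback regulators and other early response genes.

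RNA was sequenced from lineage-labeled AT2s of 3 mice per group, all given tamoxifen and all carrying an inducible Cre under Sftpc control and the tdTomato reporter. AT2CTRL mice were Sftpc-CreERT2/+; R26-tdTomato/+, and AT2CAB mice were Sftpc-CreERT2/+; R26-tdTomato/R26-caBmpr1a, so that AT2CAB cells could also express a constitutively active BMPR1a. Mice of AT2CTRL replicates 1, 2 and 3 were 12, 16 and 12 weeks old, and those of AT2CAB replicates 1, 2 and 3 were 16, 12 and 12 weeks old. After protease digestion of the lungs, cells were sorted by the tdTomato label, which does not by itself report recombination of the caBmpr1a allele.

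Immediate early genes are transcribed within minutes of a stimulus from factors that are already present in the cell, such as SRF with its ternary complex partners, CREB and NF-kB. Their products include transcription factors of the AP-1, EGR and KLF families, and inhibitors that shut the response down again, such as dual-specificity phosphatases that inactivate MAP kinases and TTP-family proteins that promote decay of AU-rich mRNAs. Heat shock genes are activated by HSF1 when unfolded protein accumulates, and encode chaperones of the HSP70, HSP90, HSP40 and small heat shock families. Both programs are known to respond to enzymatic tissue dissociation.

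The libraries had 22909120, 24490233 and 27915100 counts in AT2CTRL replicates 1, 2 and 3, and 21554249, 24716504 and 28440227 counts in AT2CAB replicates 1, 2 and 3. Levels are given as CPM, the counts of a gene relative to its library's total after TMM scaling. A level of 3 counts, the most that a count of 0 allows, corresponded to between 0.0976 and 0.138 CPM, which covers counting error only. The surfactant genes that define AT2s were abundant in all 6 libraries, with Sftpc between 42700.0 and 60123 CPM and Sftpb between 22424 and 25607 CPM. As a check of the genotype labels, the BMP target Id1 had 18.5, 20.8 and 19.2 CPM in AT2CTRL and 124, 177 and 411 CPM in AT2CAB replicates 1, 2 and 3. Id3 had 13.8, 15.6 and 11.2 CPM against 179, 247 and 545 CPM, and Smad6 had 44.7, 63.2 and 55.4 CPM against 105, 159 and 130.2 CPM. Bmpr1a itself lay between 96.8 and 131 CPM with overlapping groups.

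Libraries of 1 group were not alike. Reads on Y-linked genes (Eif2s3y, Ddx3y, Kdm5d and Uty summed) came to 176 CPM in AT2CTRL replicate 1 and 146 CPM in AT2CAB replicate 3, and to 0 in the other 4 libraries. These 2 libraries lay at -35.6 and -72.4 on the first principal component of all tested genes, which held 49.5% of the variance, and the other 4 lay between 1.19 and 54.2. Since each group has 1 of the 2 libraries, log2 fold changes of the members named below were also computed without them.

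Members ranged from the most abundant transcripts of the AT2s to scarce ones. Per kilobase of exon, in the mean of the 6 libraries, 8 members ranked among the first 100 of the 16723 genes tested, and Egr3 ranked lowest of the tested members (13016). Hspa1b (1204 CPM per kb, rank 19), Hspa1a (1100.4 CPM per kb, rank 23), Fos (971 CPM per kb, rank 26) and Jun (884 CPM per kb, rank 29) had the highest levels. Fosl1 had between 0 and 2.25 CPM and was the 1 member that failed the expression filter. Together the 42 genes took from 2.11% of all counts in AT2CTRL replicate 3 to 3.10% in AT2CAB replicate 3. The share was 2.73% and 2.47% in AT2CTRL replicates 1 and 2 and 2.28% and 2.16% in AT2CAB replicates 1 and 2, so the groups overlapped and AT2CAB had the wider spread. In bulk RNA, fewer responding cells and less RNA per cell cannot be told apart.

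**Figure D1:**
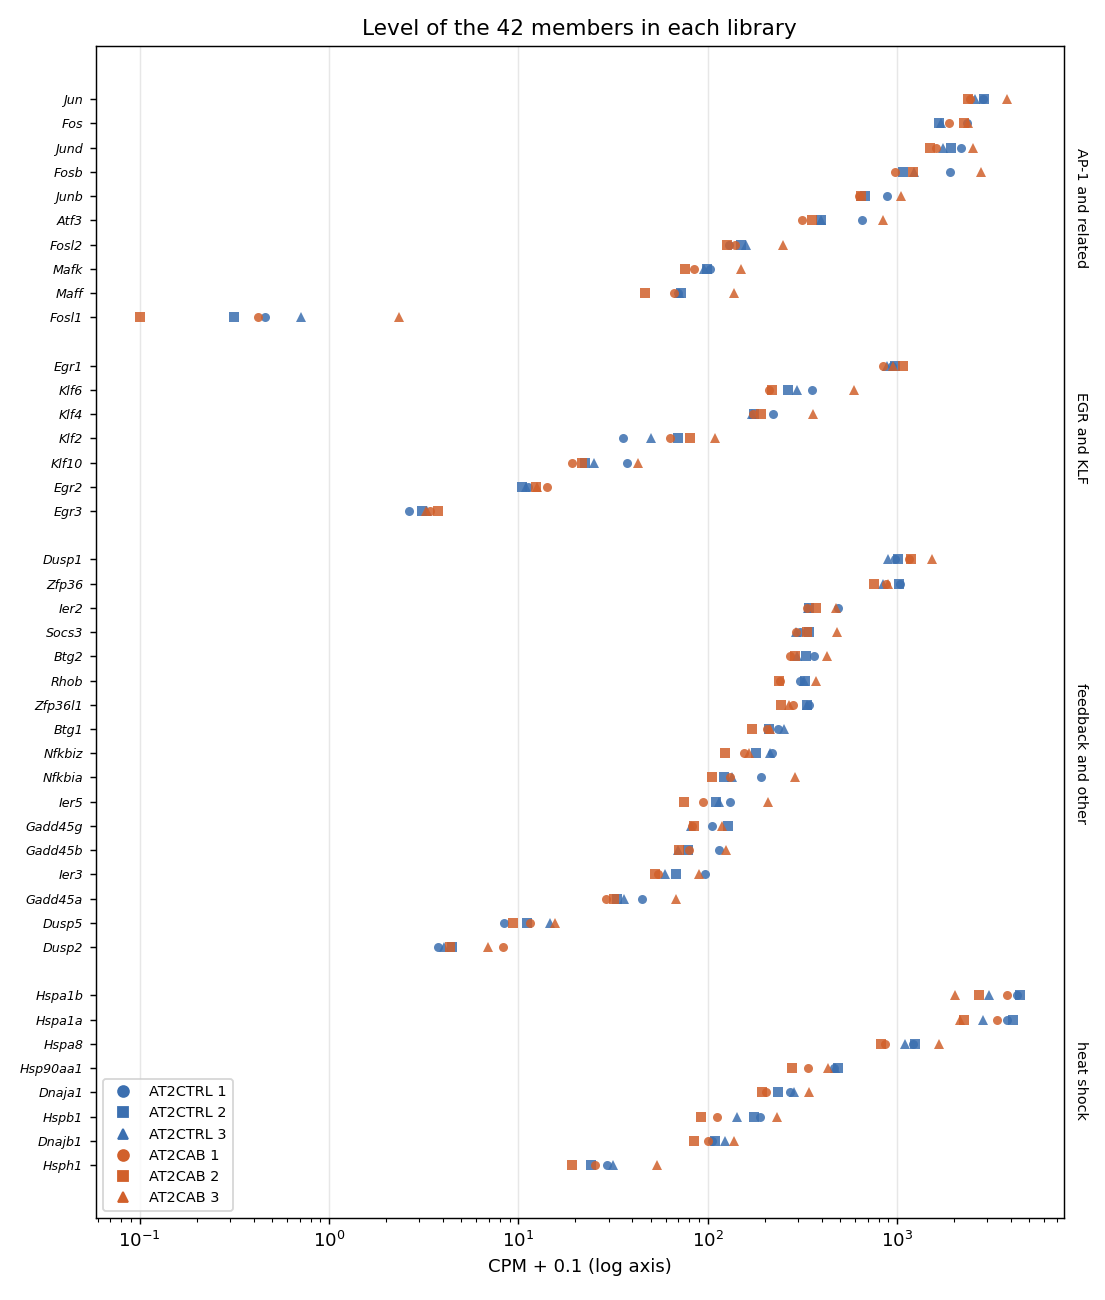
Level of each of the 42 members in each of the 6 libraries, in CPM plus 0.1 on a log axis, with genes grouped by role and ordered by mean. Colours mark the groups and symbols the replicates. The triangle of AT2CAB replicate 3 lies farthest right for 27 of the 41 tested members, and farthest left for Hspa1a and Hspa1b.

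No member differed between AT2CAB and AT2CTRL at a p under 0.05 after Benjamini-Hochberg adjustment over all tested genes in edgeR's quasi-likelihood test (0 of 41 tested, against 0.251% of all 16723 genes tested). The smallest adjusted p of a member was 0.387, for Nfkbiz. DESeq2 and limma-voom also called 0 members. At an unadjusted p under 0.05, edgeR had 6 members, DESeq2 7 and limma-voom 5. The 6 were Klf2, Dusp1 and Dusp2 on the higher side (3 of 41, against 4.62% of all genes) and Zfp36l1, Nfkbiz and Hsp90aa1 on the lower side (3 of 41, against 5.05%). The balance differed with the scaling. With library size alone, edgeR had 4 members higher and 0 lower (8.14% and 1.91% of all genes), and with upper-quartile scaling 4 higher and 1 lower, Nfkbiz (5.99% and 3.10%). All 3 AT2CAB values lay above all 3 AT2CTRL values for Egr2 and Dusp1 (4.88% of the members, against 7.0% of all genes), and below them for Zfp36l1, Nfkbiz and Hsp90aa1 (7.32%, against 10.1%). Both shares were below those of all genes. The choice to name Egr2 and Zfp36l1 was made after seeing the values. An exact permutation test of 3 against 3 libraries cannot give a two-sided p below 0.1 for a single gene.

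The median log2 fold change (AT2CAB minus AT2CTRL) was 0.07 for the immediate early members and -0.16 for the heat shock members, beside -0.0096 for all genes tested. Both medians moved with single libraries. That of the immediate early members was -0.21 without AT2CAB replicate 3, 0.23 without AT2CAB replicate 1, 0.24 without AT2CAB replicate 2, 0.20 without AT2CTRL replicate 1 and 0.024 without AT2CTRL replicate 3. That of the heat shock members was -0.34 without AT2CAB replicate 3, -0.018 without AT2CAB replicate 1 and 0.050 without AT2CAB replicate 2. In the 4 libraries without Y-linked reads the medians were -0.15 and -0.33. Over all members, 24 of 41 log2 fold changes were above 0 with all libraries, 8 of 41 without AT2CAB replicate 3, and 11 of 41 in the 4 libraries. Of all genes, 51.2% were below 0 with all libraries, 50.6% without AT2CAB replicate 3 and 47.3% in the 4 libraries. Again no member was called in either subset. At an unadjusted p under 0.05, edgeR then had 1 member higher and 10 lower without AT2CAB replicate 3, where all genes had 4.60% higher and 2.92% lower. In the 4 libraries 2 members were higher and 11 lower, where all genes had 6.26% and 7.28%. Both subsets lack AT2CAB replicate 3, the highest library for 27 of the 41 tested members, so they are not independent checks. Without AT2CAB replicate 1 edgeR had 2 higher and 4 lower, and without AT2CAB replicate 2 it had 3 and 0. Without AT2CTRL replicates 1, 2 and 3 the numbers were 2 and 3, 1 and 2, and 0 and 3. Shares of all genes lay between 2.17% and 6.76% in these fits. Leaving out AT2CAB replicate 1 or 2 moved the signs the other way, to 31 of 42 above 0 in each case. Of all genes, 46.5% and 47.2% were then below 0.

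**Figure D2:**
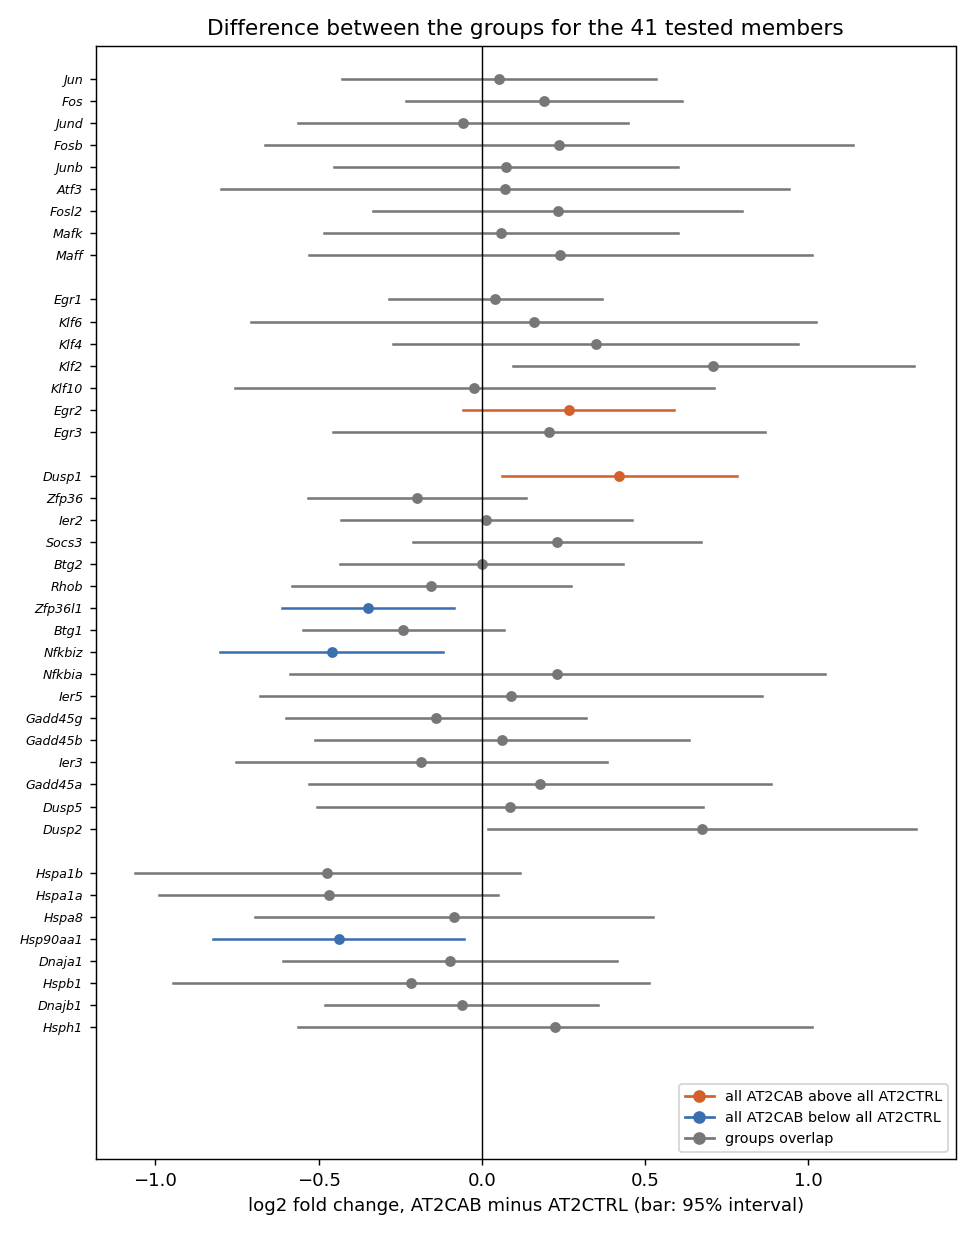
Log2 fold change of each of the 41 tested members (AT2CAB minus AT2CTRL, n = 3 libraries per group), with its 95% interval from edgeR's fit as a bar. Orange and blue mark the 2 genes whose AT2CAB values all lie above and the 3 whose AT2CAB values all lie below those of AT2CTRL.

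The highest levels of the members came mostly from 1 library. AT2CAB replicate 3 had the highest level of 27 of the 41 tested members (65.9%, against 27.5% of all genes), and AT2CTRL replicate 1 was highest for 5. The lowest level was in AT2CAB replicate 1 or 2 for 29 of 41 members (70.7%, against 22.0%). Both libraries with Y-linked reads lay above the other 4 for 17 members (41.5%, against 19.5%). The median deviation of the tested immediate early members from their 6-library mean, on the log2 scale, was 0.45 in AT2CAB replicate 3 and 0.15 in AT2CTRL replicate 1. It was -0.047 and -0.11 in AT2CTRL replicates 2 and 3, and -0.20 and -0.28 in AT2CAB replicates 1 and 2. For the 8 heat shock members it was 0.40 in AT2CAB replicate 3 and -0.43 in AT2CAB replicate 2. Without Hspa1a and Hspa1b, which were lowest in AT2CAB replicate 3 and were set apart after seeing the values, it was 0.51 and -0.49. The median deviation of all tested genes lay between -0.024 and 0.052 in the same libraries. The median SD of log2 levels within groups was 0.34 for the members and 0.27 for all genes.

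**Figure D3:**
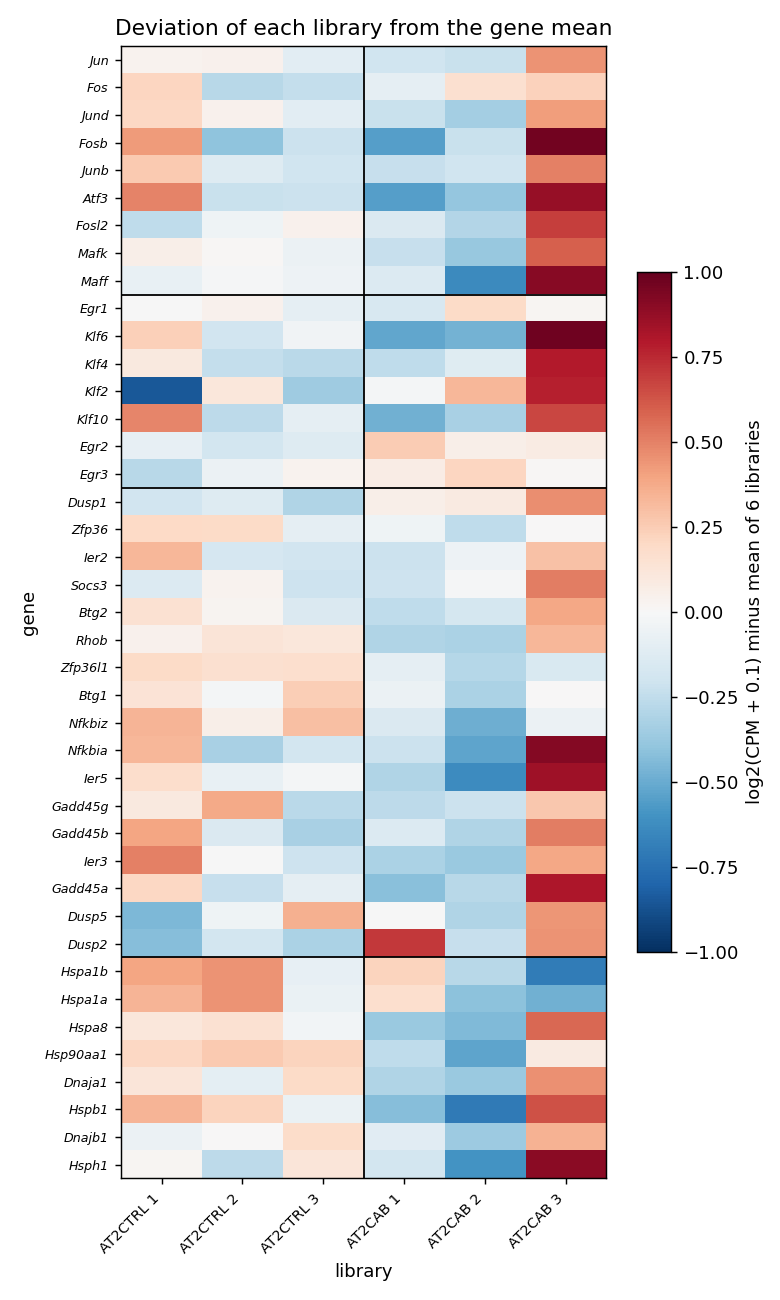
Difference of each library's log2(CPM + 0.1) from the mean of the 6 libraries for the 41 tested members, by role (horizontal lines) and group (vertical line). Differences beyond 1 in either direction have the darkest shade. AT2CAB replicate 3 is red for most genes and blue for Hspa1a and Hspa1b.

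Among the AP-1 genes, which encode the basic leucine zipper proteins that pair as FOS-JUN dimers and their ATF and MAF relatives, Jun, Fos and Jund were the most abundant per length. Fos, the best known immediate early gene, had 2335, 1662 and 1702 CPM in AT2CTRL replicates 1, 2 and 3, and 1889.9, 2249.5 and 2366 CPM in AT2CAB replicates 1, 2 and 3. Both groups reached about the same highest level, and AT2CTRL replicates 2 and 3 were the low libraries. The log2 fold change of Fos was 0.19 (95% interval -0.23 to 0.61), 0.33 in the 4 libraries without Y-linked reads, 0.36 without AT2CTRL replicate 1 and 0.099 without AT2CTRL replicate 2. Fosb, a FOS paralog, had 1912, 1079.5 and 1226 CPM against 973, 1218 and 2777 CPM. The lowest and the highest library were both AT2CAB, and the interval of its log2 fold change ran from -0.66 to 1.14.

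Jun, the principal partner of FOS, had 2849.6, 2865 and 2577 CPM in AT2CTRL and 2419, 2380.2 and 3804 CPM in AT2CAB. Junb had 884, 673 and 642 CPM against 628, 643 and 1044 CPM, and Jund, which is expressed in resting cells as well, had 2164, 1926 and 1739 CPM against 1608, 1484 and 2508 CPM. In all 3 JUN genes AT2CAB replicate 3 was highest. AT2CAB replicates 1 and 2 were below all AT2CTRL libraries for Jun and Jund, and close to the lowest AT2CTRL library for Junb. Atf3, a stress-induced repressor, had 650.3, 396 and 398 CPM in AT2CTRL and 316, 354 and 847 CPM in AT2CAB. For Atf3 the log2 fold change was 0.07 (95% interval -0.80 to 0.94) with all libraries, -0.48 without AT2CAB replicate 3 and -0.21 in the 4 libraries without Y-linked reads. Maff, a small MAF protein, had the largest log2 fold change of the 9 tested AP-1 genes (0.24). Jund had the smallest (-0.06, and -0.21 in the 4 libraries). Maff had between 46.7 and 72.0 CPM in 5 libraries and 137 CPM in AT2CAB replicate 3, and its log2 fold change without that library was -0.29. The other 2 tested genes, Fosl2 and Mafk, were also highest in AT2CAB replicate 3. Of the 9 tested AP-1 genes, all 9 were highest there and 6 were higher in both libraries with Y-linked reads than in the other 4.

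The 250 bases before the start of Fos are shown because this gene and all other tested AP-1 genes were highest in AT2CAB replicate 3. They lie on the plus strand at chr12:85473640-85473889 of GRCm38.p6 (the patch release of the mm10 assembly, sequence from RefSeq), upstream of the gene and outside the exons of the count table. Capitals mark the letters TGACG, which form the first part of a cAMP response element, found 129 and 66 bases before the start.
Fos: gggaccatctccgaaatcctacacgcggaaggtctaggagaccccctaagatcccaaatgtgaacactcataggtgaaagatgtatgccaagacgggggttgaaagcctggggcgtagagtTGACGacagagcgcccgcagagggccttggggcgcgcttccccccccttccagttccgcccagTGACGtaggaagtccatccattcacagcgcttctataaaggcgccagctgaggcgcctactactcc

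The EGR and KLF genes encode zinc finger transcription factors. Egr1, an SRF target, was nearly level across libraries, with 940.0, 975 and 888 CPM in AT2CTRL and 847, 1081 and 956 CPM in AT2CAB. The groups overlapped, AT2CAB replicate 3 lay between the other AT2CAB libraries, and the log2 fold change was 0.042 (95% interval -0.28 to 0.37), or 0.085 in the 4 libraries without Y-linked reads. Egr2 had 11.2, 10.4 and 10.8 CPM against 14.1, 12.3 and 12.5 CPM, without overlap, and the log2 fold change was 0.27, or 0.35 in the 4 libraries without Y-linked reads (edgeR's adjusted p with all libraries was 0.597). Egr3 was low, between 2.56 and 3.65 CPM.

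Klf6 and Klf4 followed the AP-1 pattern. Klf6 had 356, 265 and 295 CPM in AT2CTRL and 211, 218 and 593 CPM in AT2CAB, so that AT2CAB held both the 2 lowest libraries and the highest. For Klf6 the log2 fold change was 0.16 (95% interval -0.71 to 1.02), against -0.35 in the 4 libraries without Y-linked reads and -0.47 without AT2CAB replicate 3. Klf4 had 222, 176 and 172 CPM against 174, 191 and 361 CPM. Its log2 fold change of 0.35 was -0.017 without AT2CAB replicate 3 and 0.10 in the 4 libraries. Klf10, a TGFβ-inducible member of the family, had the smallest log2 fold change of the list (-0.02, and -0.19 in the 4 libraries) and was highest in AT2CAB replicate 3 and AT2CTRL replicate 1.

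Klf2 is best known from endothelium under flow and from quiescent lymphocytes. With all libraries, it had the largest log2 fold change of the 41 tested members. It had 35.5, 69.3 and 50.1 CPM in AT2CTRL and 63.1, 80.5 and 109 CPM in AT2CAB. AT2CTRL replicate 1 was lowest and AT2CAB replicate 3 highest, but AT2CTRL replicate 2 exceeded AT2CAB replicate 1. The log2 fold change was 0.71 (95% interval 0.10 to 1.32, adjusted p = 0.453 from edgeR's test) and 0.30 in the 4 libraries without Y-linked reads. The summed level of 12 endothelial marker genes was also lowest in AT2CTRL replicate 1, with 357, 791 and 536 CPM in AT2CTRL and 674, 1135 and 778 CPM in AT2CAB replicates 1, 2 and 3. All 12 were highest in AT2CAB replicate 2, whereas Klf2 was highest in AT2CAB replicate 3. Of these genes, 12 of 12 had a log2 fold change above 0 (8160 of all 16723 genes), 7 had an unadjusted p under 0.05 (4.62% of all genes on the higher side) and 0 were called. Ptprb was the most abundant, with 45.8, 146 and 94.4 CPM against 109, 205 and 123 CPM, and none was at 0 in all libraries. Their part in the result for Klf2 was not tested.

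Of the 17 feedback regulators and other early genes, 2 were higher and 2 lower at an unadjusted p under 0.05 with all libraries. The shares of all genes were 4.62% and 5.05%. Dusp1, the phosphatase that inactivates p38 and JNK, had 970.0, 1016 and 901 CPM in AT2CTRL and 1154, 1180.0 and 1530.0 CPM in AT2CAB. All AT2CAB libraries were above all AT2CTRL libraries, with AT2CAB replicate 3 farthest. Mean levels were 962 ± 58.0 and 1288 ± 209.9 CPM (SD, n = 3). The log2 fold change was 0.42 (95% interval 0.06 to 0.78, adjusted p = 0.448 from edgeR's test), and 0.32 both without AT2CAB replicate 3 and in the 4 libraries without Y-linked reads. Dusp2, an ERK and p38 phosphatase of hematopoietic cells, had the largest log2 fold change of the list (0.67) at a low level, with 3.68, 4.37 and 3.96 CPM against 8.16, 4.23 and 6.80 CPM. It was highest in AT2CAB replicate 1, and AT2CAB replicate 2 lay within AT2CTRL. In the 4 libraries without Y-linked reads the log2 fold change was 0.60. AT2CAB replicate 1 also had the highest sum of 15 leukocyte markers, 210.5 CPM, against 85.6, 93.5 and 102 CPM in AT2CTRL and 124 and 75.3 CPM in AT2CAB replicates 2 and 3. AT2CAB replicate 3, also above AT2CTRL for Dusp2, had the lowest leukocyte sum. Of these markers, 14 of 15 had a log2 fold change above 0 (8160 of all 16723 genes). At an unadjusted p under 0.05 in edgeR's test 1 was higher (4.62% of all genes), 0 were called and none was at 0 in all libraries. The most abundant, Cd68, had between 17.4 and 27.1 CPM and was highest in AT2CTRL replicate 1. Their part in the result for Dusp2 was not tested.

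Nfkbiz and Zfp36l1 were lower in each AT2CAB library than in each AT2CTRL library. Nfkbiz, an atypical nuclear IκB protein, had 219, 179 and 213 CPM against 156, 123 and 166 CPM. Its log2 fold change was the smallest of the list, -0.46 (95% interval -0.80 to -0.12), and was -0.46 in the 4 libraries without Y-linked reads as well. Zfp36l1, which promotes decay of AU-rich mRNAs, had 341, 334 and 335 CPM against 280.5, 245 and 268 CPM. The 3 AT2CTRL libraries were nearly identical, and the SD within groups was smaller for only 3.83% of all tested genes. Its log2 fold change was -0.35 (95% interval -0.61 to -0.08), and -0.32 in the 4 libraries. Neither was among the genes called (adjusted p = 0.387 and 0.399 from edgeR's test).

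The related Zfp36, encoding TTP, had 1031, 1024 and 844 CPM in AT2CTRL and 870.5, 756 and 900.5 CPM in AT2CAB, with overlap (log2 fold change -0.20, 95% interval -0.53 to 0.14, and -0.17 in the 4 libraries). Nfkbia, the classical NF-kB inhibitor, had 192, 122 and 134 CPM against 131, 105 and 288 CPM. AT2CAB replicate 3 and AT2CTRL replicate 1 were its high libraries, and its log2 fold change of 0.23 was -0.29 without AT2CAB replicate 3. Socs3, which inhibits JAK-STAT signaling, had 306, 344 and 292 CPM against 292, 334 and 479.5 CPM, with AT2CAB replicate 3 alone above AT2CTRL. Its log2 fold change was 0.23 with all libraries and 0.010 in the 4 libraries without Y-linked reads. The early response genes Ier2 and Ier3, the antiproliferative Btg2 and the stress sensor Gadd45b were each higher in both libraries with Y-linked reads than in the other 4. Ier2 was at 486 and 473 CPM in those 2 libraries and between 332 and 372 CPM in the others. Ier3 was at 96.9 and 89.4 CPM against 52.7 to 68.1 CPM, Btg2 at 362 and 426 CPM against 273 to 332 CPM, and Gadd45b at 114 and 124 CPM against 69.7 to 79.1 CPM. The log2 fold changes of these 4 genes between genotypes lay between -0.19 and 0.06, and in the 4 libraries they were 0.085 for Ier2, -0.21 for Ier3, -0.12 for Btg2 and 0.048 for Gadd45b. The remaining genes of the list (Ier5, Btg1, Dusp5, Rhob, Gadd45a and Gadd45g) had overlapping groups and log2 fold changes between -0.24 and 0.18. With 1 library left out, their range was -0.45 (without AT2CAB replicate 3) to 0.41 (without AT2CAB replicate 1). In the 4 libraries they lay between -0.39 and -0.15.

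The stretches before Dusp1 and Zfp36 are shown because they hold motifs of early response promoters and because the log2 fold changes of the 2 genes had opposite signs. Both are 250 bases upstream of the gene on the minus strand, at chr17:26508473-26508722 and chr7:28379229-28379478 of GRCm38.p6 (RefSeq), outside annotated exons. Capitals mark TGACG and the full cAMP response element TGACGTCA in Dusp1, where the full element lies 143 bases before the start and overlaps the shorter motif on both strands. In Zfp36 they mark a CArG box, the sequence bound by SRF, 58 bases before the start.
Dusp1: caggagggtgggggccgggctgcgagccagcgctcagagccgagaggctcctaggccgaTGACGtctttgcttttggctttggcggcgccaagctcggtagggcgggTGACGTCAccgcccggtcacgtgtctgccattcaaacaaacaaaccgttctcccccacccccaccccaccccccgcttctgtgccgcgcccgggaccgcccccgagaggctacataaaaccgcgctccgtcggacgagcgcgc
Zfp36: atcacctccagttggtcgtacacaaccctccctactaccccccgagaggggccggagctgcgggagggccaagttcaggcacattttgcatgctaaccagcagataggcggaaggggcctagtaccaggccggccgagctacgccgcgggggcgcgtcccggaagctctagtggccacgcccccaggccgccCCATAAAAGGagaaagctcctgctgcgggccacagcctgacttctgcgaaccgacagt

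The heat shock members were divided between the inducible HSP70 pair and the other chaperones. Hspa1a had 3788, 4086 and 2853 CPM in AT2CTRL and 3358, 2244 and 2145 CPM in AT2CAB. Hspa1b had 4276, 4455 and 3074 CPM against 3796, 2692 and 2011 CPM, the smallest log2 fold change of the list (-0.47, 95% interval -1.06 to 0.12). In both genes AT2CTRL replicates 1 and 2 were highest and AT2CAB replicates 2 and 3 lowest, and the groups overlapped because AT2CAB replicate 1 exceeded AT2CTRL replicate 3. AT2CAB replicate 3, the highest library for all other heat shock members but Hsp90aa1, was lowest for this pair. The log2 fold change of Hspa1a was -0.47 (95% interval -0.99 to 0.05) and -0.28 in the 4 libraries without Y-linked reads, where that of Hspa1b was -0.18. The sum of the 2 genes was 7510.2 ± 1392 CPM in AT2CTRL and 5415 ± 1556 CPM in AT2CAB (SD, n = 3). The levels of both genes and their sum may be too low, and the division between the 2 genes is uncertain. Of the 150-base windows of the Hspa1a transcript, 38.1% occur unchanged in that of Hspa1b. Reads that map to several places were not counted under the recorded options.

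Both genes lie on the minus strand of chromosome 17, and the 250 bases before their starts match at 247 of 250 places. They are shown because the pair departed from the other members. Capitals mark GAANNTTC, an inverted pair of heat shock element units, 104 bases before each start. The positions are chr17:34972157-34972406 for Hspa1a and chr17:34959239-34959488 for Hspa1b in GRCm38.p6 (RefSeq), upstream of each gene and outside annotated exons.
Hspa1a: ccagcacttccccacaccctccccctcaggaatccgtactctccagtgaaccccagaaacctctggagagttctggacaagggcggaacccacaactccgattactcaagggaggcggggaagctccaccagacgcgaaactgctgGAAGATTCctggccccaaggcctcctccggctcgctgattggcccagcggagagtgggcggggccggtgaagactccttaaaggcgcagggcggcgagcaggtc
Hspa1b: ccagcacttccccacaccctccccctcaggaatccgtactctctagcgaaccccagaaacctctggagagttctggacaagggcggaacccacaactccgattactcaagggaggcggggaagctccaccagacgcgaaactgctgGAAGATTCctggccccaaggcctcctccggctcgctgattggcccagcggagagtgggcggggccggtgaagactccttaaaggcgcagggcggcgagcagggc

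Of the other heat shock members, Hsp90aa1, the inducible cytosolic HSP90, did not overlap between groups. It had 465, 486 and 472 CPM in AT2CTRL and 339, 279.8 and 431 CPM in AT2CAB, so every AT2CAB library was lower. The log2 fold change was -0.44 (95% interval -0.82 to -0.05, adjusted p = 0.461 from edgeR's test). In the 4 libraries without Y-linked reads the log2 fold change was -0.60 and edgeR's adjusted p was 0.0564, the smallest of any member under the alternatives run. Without AT2CAB replicate 2 they were -0.29 and 0.781, and edgeR's unadjusted p was 0.0923 after upper-quartile scaling and 0.122 when only library size was used. Hspa8, the constitutive HSP70, had 1211, 1243 and 1095 CPM against 864, 821 and 1661 CPM. AT2CAB held the 2 lowest libraries and the highest, and its log2 fold change moved from -0.09 to -0.44 in the 4 libraries. The HSP40 cochaperone Dnajb1 had 105, 109 and 124 CPM against 101, 84.4 and 138 CPM, and was highest in AT2CAB replicate 3 and lowest in AT2CAB replicate 2. Its log2 fold change was -0.06, and -0.30 in the 4 libraries. Hsph1, an HSP110 that recycles HSP70, had the largest log2 fold change of the list (0.22), with 29.1, 24.0 and 31.3 CPM against 25.4, 19.0 and 54.1 CPM. Without AT2CAB replicate 3 it was -0.31. Hspb1 and Dnaja1 had overlapping groups and were also highest in AT2CAB replicate 3. Hspb1, a small heat shock protein named after seeing its values, had 189, 175 and 143 CPM against 112, 91.6 and 233 CPM. Its log2 fold change was -0.22 with all libraries, -0.69 without AT2CAB replicate 3, 0.039 without AT2CAB replicate 2 and -0.61 in the 4 libraries without Y-linked reads (edgeR's adjusted p in these 4 was 0.0886). Counts of Dnaja1 are uncertain, since 1503 exon bases overlap Smu1 on the other strand and strand was not used.

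The summed level of the 6 heat shock members other than Hspa1a and Hspa1b was 2272, 2271 and 2151 CPM in AT2CTRL and 1645, 1489.5 and 2860.3 CPM in AT2CAB. AT2CAB replicates 1 and 2 were below and replicate 3 above all AT2CTRL libraries. Log2 fold changes were below 0 for 7 of the 8 heat shock members. This number was 4 of 8 when only library size was used for scaling and 5 of 8 with upper-quartile scaling, where the share of all genes below 0 went from 51.2% to 31.0% and 40.4%. It was 3 of 8 without AT2CAB replicate 2, 4 of 8 without AT2CAB replicate 1, and 8 of 8 both without AT2CAB replicate 3 and in the 4 libraries without Y-linked reads.

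**Figure D4:**
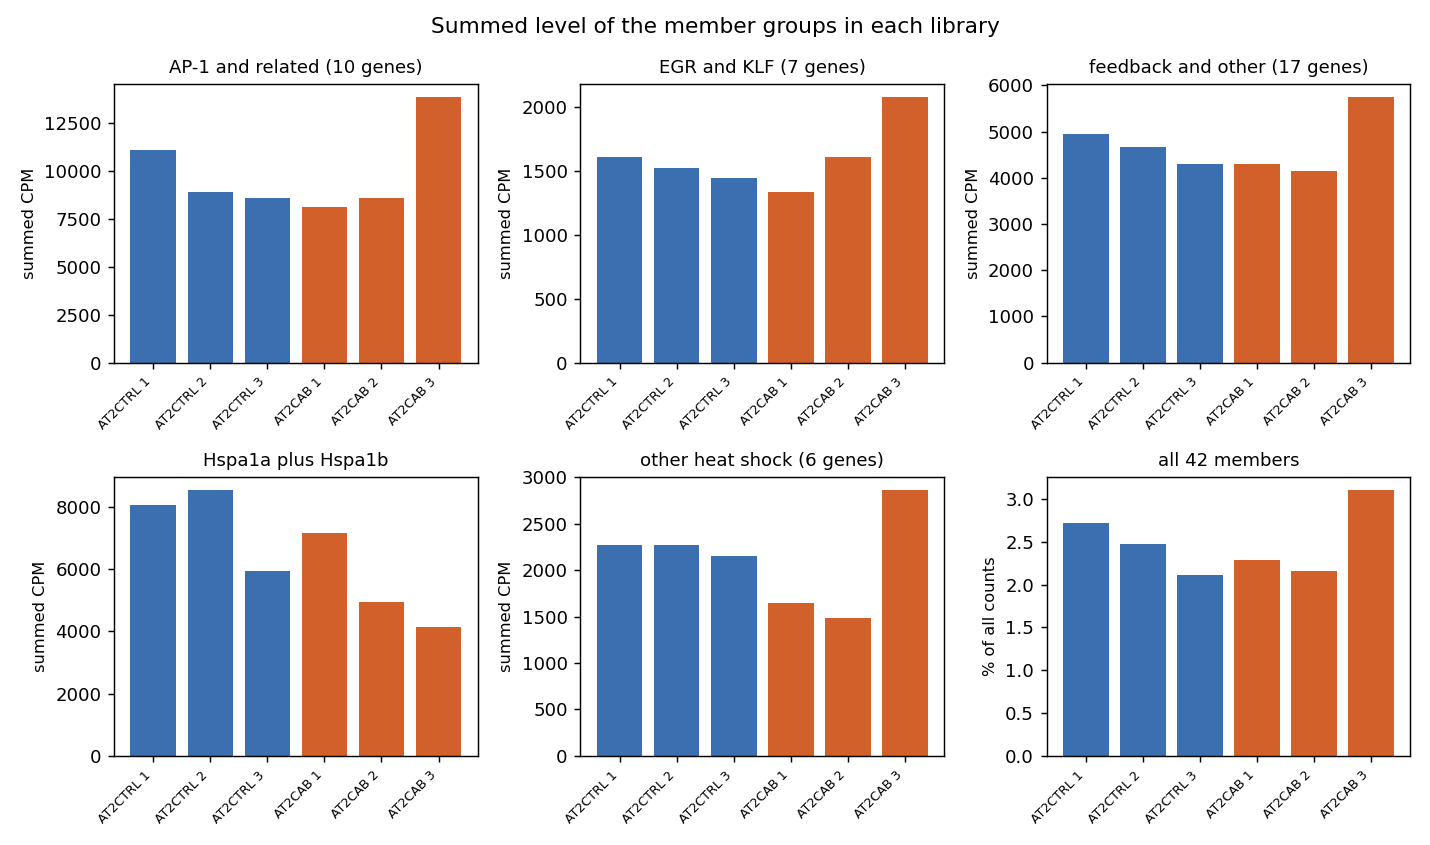
Bars give the summed CPM of each role group in each library, with Hspa1a plus Hspa1b apart from the other 6 heat shock genes, and the share of all counts taken by the 42 members, blue for AT2CTRL and orange for AT2CAB. AT2CAB replicate 3 is highest in 5 panels and lowest for Hspa1a plus Hspa1b (4156 CPM).

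RefSeq promoter windows of 300 bases (250 before to 50 after the start, GRCm38.p6) were found for 34 of the 42 members, 28 immediate early and 6 heat shock genes. They were searched on both strands, a gene counting once if any of its windows held the motif. GAANNTTC was in 5 of the 6 heat shock genes (Hspa1a, Hspa1b, Hspb1, Dnaja1 and Hsph1) and in 2 of the 28 immediate early genes (Fosl2 and Jun), and in 9.04% of 27025 genes. The CArG box, which is CC and GG around 6 bases of A or T, was in 3 of the 28 immediate early genes (Egr2, Zfp36 and Dusp5), against 1.81% of all genes. TGACGTCA was in 3 of 28 (Maff, Btg2 and Dusp1), against 2.03%, and its part TGACG was in 14 of 28 and in 3 of the 6 heat shock genes (Hspb1, Dnaja1 and Dnajb1), against 23.0%. The GC box GGGCGG was in 30 of 34 members, against 38.2%. The AP-1 site TGANTCA was in 1 of 34, Zfp36l1, against 8.97%. The members have 44 windows for 34 genes, and a match describes letters in these windows, not a bound site.

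Other genes of the same programs, from lists of genes outside the 42, showed 0 calls at an adjusted p under 0.05 in edgeR's test. Of 36 tested further immediate early genes, 0 were higher and 5 lower (13.9%) at an unadjusted p under 0.05, against 4.62% and 5.05% of all genes. Of these 36 genes, 17 had log2 fold changes above 0, and the median was -0.0043. Their extremes were Plk3, a stress-responsive kinase (0.76, with 103 CPM in AT2CAB replicate 3 and 21.3 to 33.3 CPM elsewhere), and Dusp4, an ERK phosphatase (-0.53, with 69.4, 92.1 and 94.2 CPM in AT2CTRL and 66.8, 40.8 and 69.0 CPM in AT2CAB). Egr4 and Npas4 did not pass the expression filter. AT2CAB replicate 3 was highest for 21 of the 36 genes (58.3%, against 27.5% of all genes). AT2CAB replicate 1 or 2 was lowest for 25 (69.4%, against 22.0%).

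Of 25 further heat shock genes, 22 had log2 fold changes below 0, against 8563 of all 16723 genes, and the median was -0.13. The number was 16 without AT2CAB replicate 1, where 46.5% of all genes were below 0. Scalings that shift all genes shifted it as well, to 17 with upper-quartile scaling (40.4% of all genes) and 11 with library size alone (31.0%). At an unadjusted p under 0.05, 1 was higher and 2 were lower, against 4.62% and 5.05% of all genes. Hspa2, an HSP70 known from spermatogenesis, was the highest. It had 15.2, 10.6 and 8.07 CPM in AT2CTRL and 26.4, 40.0 and 50.1 CPM in AT2CAB, without overlap. The log2 fold change of Hspa2 was 1.78 (SE 0.29), and edgeR's adjusted p was 0.0726, which did not pass. Fkbp4, an HSP90 cochaperone, was the lowest (-0.33), with 359.6, 388 and 352 CPM against 290.3, 284 and 297 CPM.

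A list of 22 genes, all tested, held growth factor receptors, RAS and RAF proteins, MAP kinases of the ERK, JNK and p38 branches, SRF cofactors and Creb1, which lie upstream of early genes. At an unadjusted p under 0.05, 2 were higher and 1 lower, against the same shares of all genes, and the median log2 fold change was -0.09. Mapk3, encoding ERK1, was the highest (0.49), with 256, 224 and 229 CPM in AT2CTRL and 281, 337 and 377 CPM in AT2CAB, without overlap (adjusted p = 0.339 from edgeR's test). Map2k1, encoding MEK1, was the lowest (-0.26), with 119, 123 and 125 CPM against 104, 97.6 and 105 CPM. AT2CAB replicate 3 was highest for 3 of these 22 genes.

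Markers of other lung cells were present in all libraries, with summed levels below that of the AT2 markers. The 12 mesenchymal markers summed to 231, 343 and 310.5 CPM in AT2CTRL and 407, 517 and 476 CPM in AT2CAB. Of these, 12 of 12 had a log2 fold change above 0 (8160 of all 16723 genes), 5 had an unadjusted p under 0.05 and 0 were called. All AT2CAB values lay above all AT2CTRL values for 5 of them (41.7%, against 7.0% of all genes). None was at 0 in all libraries, and Fn1 was the most abundant (22.1 to 99.8 CPM). The 10 AT1 markers summed to between 2925 and 3876 CPM, with Ager the most abundant (1184 to 1995 CPM). Of these, 8 of 10 had a log2 fold change above 0 (8160 of all 16723 genes) and 0 were called. At an unadjusted p under 0.05, 2 were higher and 1 lower, against 4.62% and 5.05% of all genes. Rtkn2 had the largest log2 fold change (0.84) and Aqp5 the smallest (-0.53, without overlap). The 8 airway markers summed to 826, 909 and 722 CPM against 838, 1175 and 1219 CPM, with Scgb1a1 the most abundant (411 to 652 CPM) and Krt5 at 0 in all libraries. Tppp3 of that list was the 1 marker called (log2 fold change 1.85, adjusted p = 0.0165 from edgeR's test). Of the 7 tested airway markers, 5 had a log2 fold change above 0 and 2 below. Cyp2f2 had the smallest (-0.53, adjusted p = 0.19 from edgeR's test). It had 214, 173 and 192 CPM in AT2CTRL and 134, 139 and 127 CPM in AT2CAB, without overlap. The 10 AT2 markers summed to 138940.0, 127540.0 and 124470.0 CPM in AT2CTRL and 116110.0, 106550.0 and 101570.0 CPM in AT2CAB, and 6 of 10 (60.0%, against 10.1% of all genes) had all AT2CAB values below all AT2CTRL values, with 0 called. The lowest sum was in AT2CAB replicate 3, the library with the highest AP-1 sum (13884 CPM) and the highest Id1 and Id3. Smad6 was highest in AT2CAB replicate 2 (159 CPM, against 130.2 CPM in replicate 3). AT2 markers lowest in AT2CAB replicate 3 were Sftpa1, Sftpd, Lamp3, Abca3, Slc34a2, Etv5 and Cxcl15 (2131 CPM, against 4301 to 8675 CPM elsewhere). Sftpb and Napsa were lowest in AT2CAB replicate 2, and Sftpc in AT2CTRL replicate 3. The part of these markers in the levels of the immediate early and heat shock genes was not tested.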

How the data were processed

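Poly(A) RNA of sorted AT2s was sequenced as paired 150-base reads. The authors trimmed the reads, aligned them to mm10 with Hisat2, removed duplicates and deposited raw counts per gene, made with featureCounts 1.5.3 over exons. Per the file headers no strand, read-pair or multi-mapping option was set, so reads on several genes or places were not counted, and both mates of a pair may have been counted (56.9% to 60.8% of the counts between 1 and 20 were even), although the authors describe counting fragments. If so, counts, the floor of 3 included, stand for fewer independent fragments. Removal of duplicates lowers the counts of abundant genes most. Exons of 4 members (Dnaja1, Fosl1, Gadd45a and Nfkbia) overlap other genes.

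Counts were tested on the whole table with edgeR 4.0.16 in R 4.3.3 (quasi-likelihood test after TMM scaling; filterByExpr at its minimum count of 10 kept 16723 genes, over which p was adjusted by Benjamini-Hochberg and called under 0.05). Intervals used the SE, the log2 fold change divided by the square root of F. DESeq2 1.42.0, limma-voom (limma 3.58.1), other scalings and filters, a replicate block, age, a term for Y-linked reads and subsets of libraries were alternatives. In counts simulated with the libraries' depths, the fit called a share of 0.80 of 50 genes with a log2 fold change of 1 and 0.54 of 50 genes with -1. Changed genes were taken above a minimum count. Each gene was drawn independently at the trended dispersion, without the variation that genes of a real library share. These shares may therefore be too high for the members. Replicate libraries are separate mice, and each pair differed beyond counting noise.

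The members and lists were chosen with earlier results of these data known. Named with values were members with the largest and smallest log2 fold change of each role list, 23 genes set by name, and the extremes and calls of the other lists; the choice of any further gene after seeing values is stated, and the rest are given by range.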

Additional observations from a re-analysis of the deposited data

How the results depend on the processing

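The number of members called was 0 higher and 0 lower at an adjusted p under 0.05 in all 17 alternative fits. With all 6 libraries and no covariate it was also 0 at an adjusted p under 0.1 and with an added fold change over 2. Under 0.1 there were 3 members in the 4 libraries without Y-linked reads, Hsp90aa1 (0.0564, edgeR), Rhob (0.0773, edgeR) and Hspb1 (0.0886, edgeR), Rhob and Hspb1 being named after seeing the values. With the term for Y-linked reads there were 2, Nfkbiz (0.0802, edgeR) and Zfp36l1 (0.0976, edgeR). Over all genes there were 213 higher and 210 lower with a term for Y-linked reads, 198 and 88 in DESeq2, and 6 and 0 without AT2CTRL replicate 2. With the replicate number as a block, 0 members were called either way. The correlation of deviations was -0.25, 0.21 and -0.53 for replicates 1, 2 and 3, and not every library correlated best with its own number. The largest correlation, 0.61, was between AT2CTRL replicate 1 and AT2CAB replicate 3, the libraries with Y-linked reads. With that difference present, these correlations cannot show whether libraries of equal number were handled together.

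Of 30 members followed, 12 kept 1 sign of their log2 fold change throughout. With 1 library left out their ranges were 0.099 to 0.36 for Fos, 0.23 to 0.33 for Egr2, 0.49 to 0.97 for Klf2, 0.32 to 0.52 for Dusp1, 0.48 to 0.91 for Dusp2, 0.033 to 0.39 for Socs3, -0.29 to -0.11 for Zfp36, -0.37 to -0.28 for Zfp36l1, -0.55 to -0.33 for Nfkbiz, -0.68 to -0.32 for Hspa1a, -0.71 to -0.24 for Hspa1b and -0.58 to -0.29 for Hsp90aa1. The other 18, none called, changed sign, with these ranges when 1 library was left out: Atf3 (-0.48 to 0.34), Btg2 (-0.19 to 0.14), Dnajb1 (-0.25 to 0.096), Egr1 (-0.038 to 0.15), Fosb (-0.31 to 0.53), Gadd45b (-0.18 to 0.29), Hspa8 (-0.45 to 0.10), Hsph1 (-0.31 to 0.51), Ier2 (-0.10 to 0.20), Ier3 (-0.43 to 0.039), Jun (-0.17 to 0.18), Junb (-0.16 to 0.23), Jund (-0.29 to 0.096), Klf10 (-0.43 to 0.23), Klf4 (-0.017 to 0.56), Klf6 (-0.47 to 0.43), Maff (-0.29 to 0.53) and Nfkbia (-0.29 to 0.51). Signs also changed in the 4 libraries without Y-linked reads for Fosb (-0.038), Jun (-0.15), Junb (-0.015), Atf3 (-0.21), Klf6 (-0.35), Nfkbia (-0.079), Hsph1 (-0.29) and Maff (-0.31). With the replicate block, Atf3 was at -0.043 and Klf6 at -0.017, with the term for Y-linked reads at -0.037 and -0.013, and in limma-voom at -0.054 and -0.022. Scaling by library size alone put Jund (0.078), Btg2 (0.13), Hspa8 (0.056), Dnajb1 (0.075) and Klf10 (0.12) above 0, where the median of all genes was itself at 0.12. Upper-quartile scaling did the same (0.025, 0.080, 0.0056, 0.024 and 0.063). Btg2 and Klf10 were at 0.026 and 0.0055 with relative log expression scaling in edgeR and at 0.020 and 0.0033 with halved counts. Btg2 was at 0.011 in DESeq2, where Klf10 stayed below 0 (-0.014). Ier2 was at -0.0030 without the expression filter. The cause of these changes was not tested.

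The median of the immediate early members lay between -0.21 and 0.24 when 1 library was left out, and that of the heat shock members between -0.34 and 0.05. With 3 libraries per group, the intervals of Fosb, Klf2 and Dusp2, among others, do not exclude a change of 2-fold.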
